A study of Mus musculus with 6 samples.

Results

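The receptor tyrosine kinases of the EGF, FGF and neurotrophin families that are followed here were Egfr, Erbb2, Erbb3, Erbb4, Fgfr1, Fgfr2, Fgfr3, Ntrk2 and Ntrk3. These 9 genes, of 37620 in the count files, were taken by name, and all 9 passed the filter on low values. Ribosome-bound mRNA was isolated from the dentate gyrus by RiboTag, in which Cre recombination switches on a hemagglutinin (HA)-tagged ribosomal protein (RPL22) and an anti-HA antibody pulls down the tagged ribosomes with their mRNAs. Both groups carried the driver Gli1CreERT2, which makes the recombinase in Gli1+ cells, and 1 tagged allele (Rpl22HA f/+). The control group was Klf9 +/+ (3 samples), and the other group carried floxed alleles of the transcription factor Klf9 (Klf9 f/f, 3 samples). By the study's methods, mice 2 to 3 months old received 3 injections of tamoxifen 12 hr apart, were sampled 4 days after the last, and each sample pooled 6 dentate gyri from 3 mice. Nothing in the labels pairs the samples, so p-values measure the spread between these pools.

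The comparison asked which mRNAs of mitogen receptors differed on ribosomes of Gli1+ cells once Klf9 was recombined, which by the study's account are radial-glial neural stem cells (RGLs), their earliest progeny and astrocytes. Titles name 2 library series, YTa22 with replicates 1 and 2 of each genotype and YTa32 with replicate 3 of each, where replicate numbers are running numbers that no label gives. Reads counted on genes numbered 52188635 to 66343759 in YTa22 and 21594714 to 27594529 in YTa32. Klf9 stood at 200.9, 203.9 and 139 CPM (counts scaled to library size, with TMM) in the controls, against 114.3, 121.3 and 120 CPM in Klf9 f/f. Each Klf9 f/f sample was below each Klf9 +/+ sample, with a log2 fold change of -0.59 (SE 0.15, unadjusted p = 0.0032, adjusted p = 0.844 by edgeR's quasi-likelihood test), which passed the study's rule for a call. Over the alternatives the adjusted p of Klf9 ranged from 0.0199 with no filter to 1.00, with 0.0834 by the likelihood-ratio test and 0.101 by DESeq2. Klf9 differed by -0.78 within YTa22 and by -0.21 within YTa32 on the log2 scale. All 10 RGL markers tested were detected in every sample, summing to 2943 to 4720 CPM in Klf9 +/+ and 3583 to 4369 CPM in Klf9 f/f. Markers of other cells were also present in every sample, astrocytes at 12440 to 19040 CPM, granule neurons at 735 to 946 CPM, oligodendrocytes at 573 to 817 CPM and endothelial and mural cells at 132 to 551 CPM in sum. Those of meninges summed to 459 to 1538 CPM, oligodendrocyte precursors to 56.3 to 92.9 CPM, inhibitory neurons to 74.7 to 106.2 CPM and microglia to 62.7 to 90.6 CPM. In such pooled RNA, fewer cells of a type and less RNA per cell cannot be told apart. Granule neurons, endothelial cells and microglia are not among the cells that the study names for this driver. RNA carried over from untagged cells cannot be told apart either. No sample was labelled as input RNA, so enrichment by the pull-down was not tested.

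Receptor tyrosine kinases span the membrane once, pair when a ligand binds outside and phosphorylate each other inside, which recruits adaptors that feed the Ras-ERK, PI3K and phospholipase C-gamma pathways. Within the EGF family, EGFR binds EGF and TGF-alpha, ERBB3 and ERBB4 bind neuregulins, ERBB2 has no known ligand and serves as a partner, and ERBB3 has little kinase activity of its own. FGF receptors bind FGFs together with heparan sulfate and are known for maintaining neural progenitors, while TrkB (Ntrk2) binds BDNF and neurotrophin-4 and TrkC (Ntrk3) binds neurotrophin-3. Astrocytes are known for a short form of TrkB that lacks the kinase, and a count per gene adds that form to the full-length one.

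To show what the members share, the 24 coding bases of the catalytic loop, the stretch of the kinase domain where phosphate transfer takes place, are given 5′ to 3′ on the coding strand from the GENCODE M1 transcripts (mm9). Capitals mark the codon of the catalytic base. Each stretch lay within a single coding exon.
Egfr: caccgtGACttggcagccaggaat
Erbb2: cacaggGACctagctgcccgaaac
Erbb3: cataggGACcttgcgctccggaat
Erbb4: catcggGATctggcagcccgcaat
Fgfr1: caccgaGACctggctgctaggaac
Fgfr2: catcgaGATttggctgccagaaac
Fgfr3: cacagaGACttggctgccagaaac
Ntrk2: caccgtGACctggccacccggaac
Ntrk3: caccggGACctggccacgaggaac
The loop lay at chr11:16804341-16804364 in Egfr (exon 21 of 28), chr11:98295561-98295584 in Erbb2, chr10:128009589-128009612 in Erbb3 and chr1:68127313-68127336 in Erbb4. It lay at chr8:26682816-26682839 in Fgfr1, chr7:137316424-137316447 in Fgfr2 and chr5:34077002-34077025 in Fgfr3, in exon 14 of 18 for each of the FGF receptors. In the neurotrophin receptors it lay at chr13:59161719-59161742 in Ntrk2 (exon 16 of 18) and chr7:85392122-85392145 in Ntrk3. Of the 24 positions, 11 were identical in all 9 genes. Pairs of the same family shared 15 to 21 bases and pairs of different families 13 to 20. The capital codon was GAC in 7 genes and GAT in Erbb4 and Fgfr2. The loop was present in 3 of 5 annotated coding transcripts of Ntrk2, 1 of 2 of Ntrk3, 5 of 7 of Fgfr3 and 1 of 4 of Egfr, and the deposited counts do not separate these transcripts.

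Per length, Ntrk2 was the most abundant receptor and the neuregulin receptors the least. In RPKM, the CPM divided by the kilobases of exon, the mean over the 6 samples was 65.6 ± 11.6 for Ntrk2, 32.7 ± 12.3 for Fgfr3, 22.8 ± 9.26 for Fgfr1, 5.81 ± 2.09 for Fgfr2, 4.42 ± 0.42 for Ntrk3, 3.73 ± 0.72 for Egfr and 2.11 ± 0.88 for Erbb2 (SD). Erbb4 stood at 0.249 ± 0.076 RPKM and Erbb3 at 0.101 ± 0.067 RPKM (SD over 6 samples). The first 3 and the last 3 places were held by the same genes in each of the 6 samples. By mean CPM, a scale not corrected for length, Ntrk2 lay at percentile 99.5 of the 15056 genes tested, Fgfr3 at 95.2, Fgfr1 at 93.4 and Erbb3 at 1.53.

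**Figure D1:**
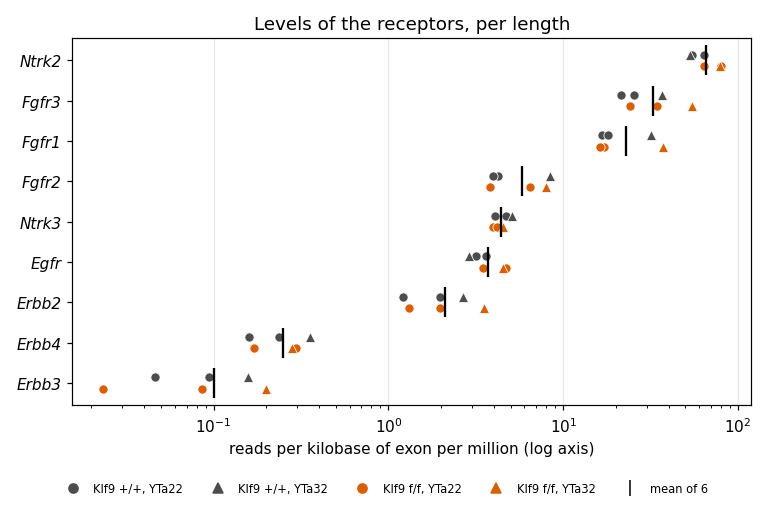
Levels per length of the 9 receptors, in RPKM (CPM divided by kilobases of exon) on a log axis, with 1 point per sample (grey Klf9 +/+, orange Klf9 f/f, circles YTa22, triangles YTa32) and a bar at the mean of the 6 samples. Ntrk2 lies at 52.9 to 79.3 RPKM and Erbb3 at 0.0234 to 0.200 RPKM. The points of neighbours in the order overlap, except between Fgfr1 and Fgfr2 and between Erbb2 and Erbb4.

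The steps of this order were tested within samples, as log2 ratios of RPKM, by an exact two-sided sign-flip permutation test over 6 samples whose smallest p is 0.03125, with Benjamini-Hochberg adjustment over 8 steps. The order was taken from the same 6 samples, so these p-values describe how steady each step was and do not test an order fixed beforehand. Ntrk2 was above Fgfr3 by 1.06 ± 0.41 on the log2 scale (SD, n = 6), Fgfr3 above Fgfr1 by 0.53 ± 0.29 and Fgfr1 above Fgfr2 by 1.97 ± 0.30, each in 6 of 6 samples (exact p = 0.03125, adjusted p = 0.0417). The same p was found for Egfr above Erbb2 (0.90 ± 0.55), Erbb2 above Erbb4 (3.04 ± 0.51) and Erbb4 above Erbb3 (1.57 ± 0.92). Between these blocks, Fgfr2 and Ntrk3 did not differ beyond their spread, at 0.32 ± 0.47 with Fgfr2 higher in 3 of 6 samples (exact p = 0.25, adjusted p = 0.25). Ntrk3 and Egfr did not either, at 0.26 ± 0.35 with Ntrk3 higher in 4 of 6 (exact p = 0.125, adjusted p = 0.143). The mean of this step was 0.51 in Klf9 +/+ and 0.0085 in Klf9 f/f, a difference between genotypes that was not tested. The direction of that last step depended on the length used, since per base of coding length Egfr stood above Ntrk3, by 0.30 on the log2 scale. The size of other steps depended on it too. Per base of coding length, Ntrk2 over Fgfr3 was larger, at 2.16, and Erbb2 over Erbb4 smaller, at 1.85.

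Each family had a leading member. Ntrk2 made up 93.1, 93.0 and 91.3% of the RPKM of both neurotrophin receptors in Klf9 +/+ and 95.2, 93.9 and 94.6% in Klf9 f/f. Fgfr3 held 50.6% ± 3.80 of the FGF receptor sum in Klf9 +/+ and 56.2% ± 2.73 in Klf9 f/f (SD, n = 3), and Fgfr1 39.7% ± 3.15 and 34.5% ± 4.36. Egfr held 59.2% ± 10.5 and 63.2% ± 8.88 of the EGF receptor sum (SD, n = 3), with Erbb2 at 34.5% and 31.9%, Erbb4 at 4.54% and 3.63% and Erbb3 at 1.73% and 1.35%. The FGF receptor Fgfr4 had at most 29 counts in a sample and was not tested.

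Between genotypes, Egfr, Fgfr3 and Ntrk2 were called up in Klf9 f/f at the study's rule of 1.2-fold with an unadjusted p under 0.05, each by about 1.3-fold, and 0 of the 9 were called down. The rule called 1.82% of all genes tested up and 2.50% down. The study names the same genes as upregulated from these samples, so the calls repeat its list and are no independent result. By qRT-PCR on a separate set of isolated mRNAs, the study also reports Egfr as upregulated and Klf9 as downregulated. The members were chosen with earlier results of these data known, so their share is no test against that of all genes. With Benjamini-Hochberg adjustment 0 of the 9 passed, where edgeR's quasi-likelihood test passed 0% of all genes and 650 had an unadjusted p under 0.05. The adjusted p was 1.00 for each member. Over the 9 members the log2 fold change was positive for 7 and negative for 2, with a median of 0.16, against a median of 0.00084 over all genes tested. In 1 of the 9, Ntrk2, every Klf9 f/f sample exceeded the controls of its own series, and in 0 of the 9 every one was below them, where this held for 7.78% and 5.53% of all genes.

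**Figure D2:**
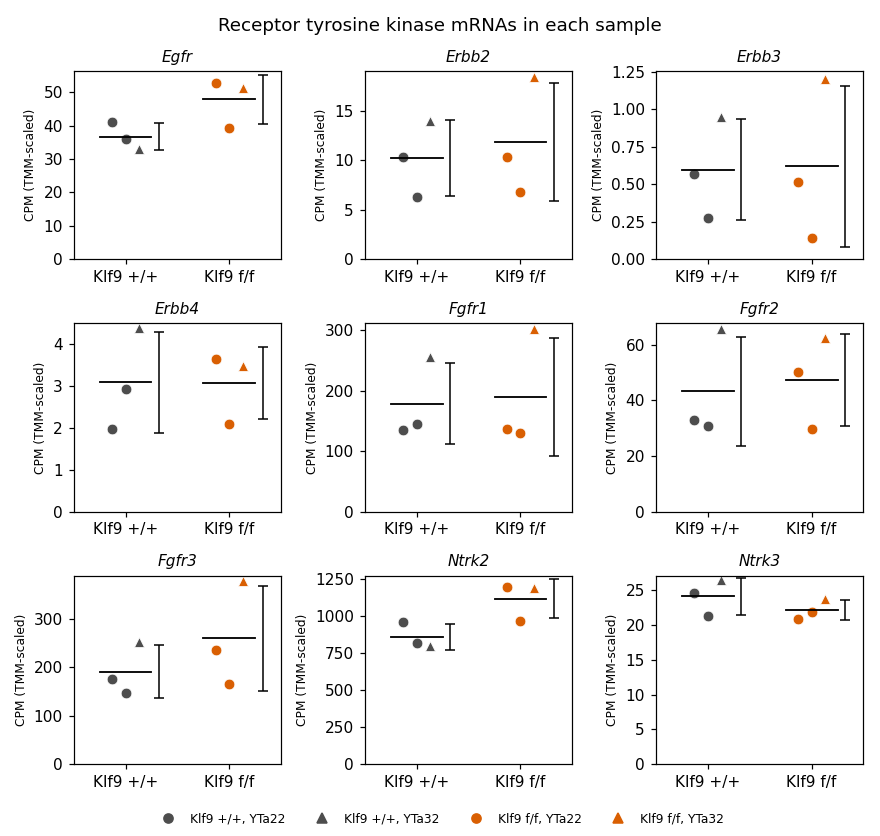
CPM of each receptor in each sample, with 1 panel per gene and its own linear axis from 0; grey points are Klf9 +/+, orange points Klf9 f/f, circles YTa22 and triangles YTa32, the line is the mean of 3 samples and the bar its SD. The Ntrk2 points of Klf9 f/f, from 968 to 1197 CPM, all lie above those of Klf9 +/+, from 798 to 961 CPM, whereas the genotypes overlap for the other 8 genes.

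In the EGF family, Egfr (ENSMUSG00000020122, chr11:16652206-16818161 of mm9, plus strand) stood at 41.0, 36.1 and 32.9 CPM in replicates 1, 2 and 3 of the controls, against 52.9, 39.4 and 51.4 CPM in those of Klf9 f/f. Klf9 f/f replicates 1 and 3 were above every control and replicate 2 lay between Klf9 +/+ replicates 1 and 2, so the groups overlapped. The log2 fold change was 0.39 (SE 0.16, unadjusted p = 0.0396 by edgeR), with differences of 0.25 within YTa22 and 0.64 within YTa32. Erbb2 (ENSMUSG00000062312, chr11:98273784-98299030, plus strand), the shared partner of the family, stood at 10.3, 6.28 and 13.9 CPM in the controls, against 10.3, 6.82 and 18.4 CPM in Klf9 f/f. It was highest in the YTa32 sample of both genotypes, and its log2 fold change of 0.16 was smaller than its SE of 0.25.

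The neuregulin receptors were the least abundant of the 9, and Erbb3 was near the floor of the assay. Erbb4 (ENSMUSG00000062209, chr1:68078760-69154633, minus strand) stood at 1.98, 2.92 and 4.38 CPM in the controls, against 3.65, 2.09 and 3.47 CPM in Klf9 f/f, with overlapping groups and a log2 fold change of 0.05 (SE 0.32). Erbb3 (ENSMUSG00000018166, chr10:128004579-128026708, minus strand) had 28, 16 and 29 reads in Klf9 +/+ and 34, 7 and 27 reads in Klf9 f/f, or 0.141 to 1.202 CPM. At this depth its log2 fold change of -0.08 had an SE of 0.56, so a difference was not detectable. Both genes changed sign between series, at -0.46 and 0.33 for Erbb3 and 0.20 and -0.33 for Erbb4 within YTa22 and YTa32.

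In the FGF family, Fgfr3 (ENSMUSG00000054252, chr5:34064373-34079716, plus strand) stood at 175.2, 146.6 and 251 CPM in the controls, against 235.2, 165.4 and 376.7 CPM in Klf9 f/f. Both groups were highest in YTa32, and within YTa22 Klf9 f/f replicate 2 fell between the controls. The log2 fold change was 0.41 (SE 0.17, unadjusted p = 0.0385 by edgeR), with differences of 0.30 within YTa22 and 0.59 within YTa32. Fgfr1 (ENSMUSG00000031565, chr8:26624126-26686186, plus strand) stood at 134.8, 144.9 and 255.5 CPM in the controls, against 136.9, 130.5 and 301 CPM in Klf9 f/f. With 0.04 on the log2 scale, the fold change was smaller than its SE of 0.13, and the genotypes interleaved within YTa22. Of the exon bases of Fgfr1, 11.0% overlap other annotated genes, among them a second identifier of the same name with 0 counts, and reads there may have been set aside as ambiguous. Fgfr2 (ENSMUSG00000030849, chr7:137305965-140315033, minus strand) stood at 33.0, 30.9 and 65.6 CPM in the controls, against 50.01, 29.8 and 62.4 CPM in Klf9 f/f. Klf9 f/f replicate 1 stood above the other 3 YTa22 samples, and the log2 fold change was 0.19 (SE 0.20). Of the exon bases of Fgfr2, 4.03% (314 bases) overlap Ctbp2, which lies on the same strand and had 12222 counts over the 6 samples. Reads there may have been set aside as ambiguous too.

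In the neurotrophin family, Ntrk2 (ENSMUSG00000055254, chr13:58907957-59235331, plus strand) stood at 961, 818 and 798 CPM in the controls, against 1197, 968 and 1195 CPM in Klf9 f/f. The groups did not overlap, although Klf9 f/f replicate 2 was close to Klf9 +/+ replicate 1. The log2 fold change was 0.38 (SE 0.16, unadjusted p = 0.0370 by edgeR), with differences of 0.28 within YTa22 and 0.58 within YTa32. Ntrk3 (ENSMUSG00000059146, chr7:85337248-85723294, minus strand) stood at 24.6, 21.3 and 26.5 CPM in the controls, against 20.9, 21.8 and 23.7 CPM in Klf9 f/f. It varied least of the 9 in relation to its mean, and its log2 fold change was -0.12 (SE 0.14).

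**Figure D3:**
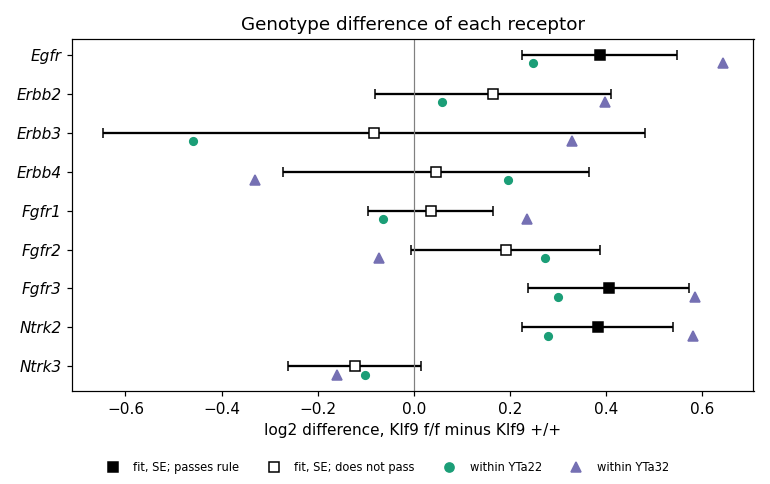
Log2 difference of Klf9 f/f minus Klf9 +/+ for each receptor, with squares for the fit over 6 samples and bars for its SE (filled where the study's rule was passed), green circles for the difference within YTa22 and purple triangles for that within YTa32. The filled squares of Egfr, Fgfr3 and Ntrk2 lie at 0.39, 0.41 and 0.38. The YTa32 difference, from 1 sample per genotype, is larger than the YTa22 difference in each.

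The 3 calls rested on few samples. Egfr, Fgfr3 and Ntrk2 all kept their call without Klf9 +/+ replicate 1 or without Klf9 f/f replicate 2, and all lost it without any 1 of the other 4 samples, with log2 fold changes of 0.26 to 0.37 for Egfr, 0.28 to 0.36 for Fgfr3 and 0.28 to 0.34 for Ntrk2. Without Klf9 f/f replicate 2 they stood at 0.54, 0.56 and 0.49, and without the series term at 0.39, 0.44 and 0.38 with 0 of the 9 called. Calls over all genes moved too, with 274 up in the fit over 6 samples, 50 without the series term, 340 and 494 in the 2 fits that kept the calls and 135 to 186 in the 4 that lost them. The interaction of genotype with series had an unadjusted p of at least 0.334 and an adjusted p of 1.00 for every member, where 1.53% of all genes had an unadjusted p under 0.05, and YTa32 held a single sample per genotype.

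Astrocyte markers moved in the same direction as these 3 receptors. All 12 had a positive log2 fold change (median 0.31), and 4 were called up (Aldh1l1, S100b, Aldoc and Gfap). Over all genes tested, 7553 of 15056 had a positive log2 fold change, 1.82% were called up and 2.50% down. The summed level of the astrocyte markers was 15470, 12440 and 13260 CPM in Klf9 +/+ and 18290, 15470 and 19040 CPM in Klf9 f/f. The study identifies RGLs by GFAP as well, so this list does not separate astrocytes from RGLs. The mean of the markers differed by 0.26 within YTa22 and 0.45 within YTa32 on the log2 scale. With that mean as a covariate, chosen with these results known, Egfr stood at 0.11 (SE 0.18), Fgfr3 at 0.08 (SE 0.18) and Ntrk2 at 0.16 (SE 0.19). In this fit 0 members were called up, and 134 of all genes in place of 274. Fits with a marker covariate left 2 residual degrees of freedom. Choroid plexus markers fell, with 11 of 11 called down (median -2.70) and a sum of 248 to 4038 CPM in Klf9 +/+ and 100 to 752 CPM in Klf9 f/f. With those as a covariate the 3 receptors stood at 0.11 (SE 0.34), 0.07 (SE 0.35) and 0.07 (SE 0.32). Here 0 members were called, with 362 of all genes called up. Endothelial and mural markers were lower in 10 of 10, with 4 called down. With them as a covariate 5 members were called up, Egfr at 0.56 (SE 0.20), Erbb2 at 0.59 (SE 0.26), Fgfr2 at 0.53 (SE 0.19), Fgfr3 at 0.65 (SE 0.19) and Ntrk2 at 0.54 (SE 0.19). That fit called 746 of all genes up and 780 down in place of 274 and 376. Meningeal markers were lower in 6 of 6 (median -0.43), with Ogn called down. The 10 RGL markers had a median log2 fold change of 0.09 with 0 called. The mean of the RGL markers differed by 0.02 within YTa22 and 0.30 within YTa32 on the log2 scale. Whether the RGL list separates RGLs from astrocytes was not tested. None of the markers of these lists was at 0 in any sample, and their part in the receptor differences was not tested.

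Ratios between related receptors compare genes within a sample. The log2 ratio of Ntrk2 to Ntrk3 CPM was 5.29, 5.26 and 4.91 in Klf9 +/+ and 5.84, 5.47 and 5.65 in Klf9 f/f. The genotypes did not overlap, and the ratio was higher in Klf9 f/f by 0.50 on the log2 scale, by 0.38 within YTa22 and 0.74 within YTa32. An exact two-sided permutation test gave p = 0.1, the smallest that 3 samples against 3 allow, and an adjusted p of 0.4 over the 4 ratios compared. Fgfr3 over Fgfr1 differed by 0.36 (exact p = 0.3, adjusted p = 0.4), with 0.36 within YTa22 and 0.35 within YTa32, and by 0.21 without Klf9 f/f replicate 1. Fgfr3 over Fgfr2 differed by 0.24 (exact p = 0.3, adjusted p = 0.4), nearly all of it in YTa32 at 0.66 against 0.03 in YTa22, and by 0.11 without Klf9 +/+ replicate 3 and 0.16 without Klf9 f/f replicate 3. Egfr over Erbb2 differed by 0.21 (exact p = 0.6, adjusted p = 0.6), with SDs of 0.64 in Klf9 +/+ and 0.56 in Klf9 f/f.

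**Figure D4:**
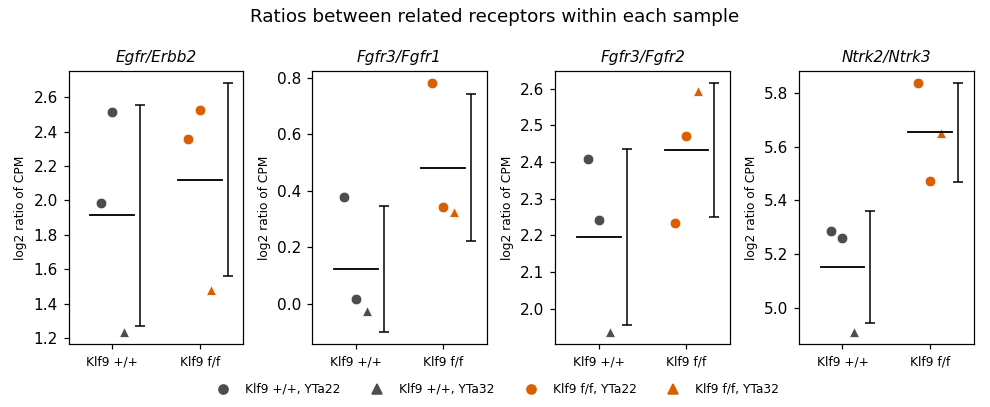
Log2 ratio of CPM between related receptors within each sample (grey Klf9 +/+, orange Klf9 f/f, circles YTa22, triangles YTa32), with lines at the mean of 3 samples and bars for its SD. The genotypes are apart for Ntrk2/Ntrk3, at 4.91 to 5.29 against 5.47 to 5.84, and overlap for the other 3 ratios.

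Several receptors differed more between the library series than between the genotypes. Fgfr1 stood at 130.5 to 144.9 CPM in the 4 YTa22 samples and at 255.5 to 301 CPM in the 2 YTa32 samples. The same separation was seen for Fgfr2 (29.8 to 50.01 against 62.4 to 65.6 CPM), Fgfr3 (146.6 to 235.2 against 251 to 376.7 CPM), Erbb2 (6.28 to 10.3 against 13.9 to 18.4 CPM) and Erbb3. In all, 5 of 9 members were higher in both YTa32 samples than in all YTa22 samples and 0 were lower, where 25.5% of all genes were higher and 28.3% lower in this way. Ntrk2 and Egfr differed by -0.00035 and -0.03 on the log2 scale between the series, averaged over genotypes. The share of reads in no gene, ambiguous or not unique was 16.4 to 19.1% in YTa22 and 25.9 to 26.6% in YTa32, and its part in these levels was not tested.

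Profiles over the 6 samples were compared by the root-mean-square distance of log2 CPM centred on each gene's mean. Among the 15056 genes tested, the closest to Egfr was Ntrk2, at 0.0451, and the closest to Ntrk2 was Egfr, followed by Cpe (0.0507 from Egfr) and Efhd1 (0.0514 from Ntrk2). The median distance of all genes was 0.382 from Egfr and 0.369 from Ntrk2. Fgfr3 was closest to Etv5 (0.0510) and Sardh (0.0635), which had log2 fold changes of 0.43 and 0.43. Fgfr1 was closest to Klhl18 (0.0381) and Ergic1 (0.0527), and Fgfr2 to Tbc1d30 (0.0382) and Gucy1b3 (0.0695). The 2 nearest genes were Pdpr and Dag1 for Erbb2, Ankrd34b and Wif1 for Erbb3, and Nupl1 and Angpt1 for Erbb4, at distances from 0.0762 to 0.216, and the nearest to Ntrk3 was Tmem189, at 0.0219. These distances describe 6 libraries that share their series and depth, and carry no test.

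Promoter sequences of 6 of the 9 members were matched in the table used here, taken from RefSeq (GRCm38.p6), as the 250 bases before and 50 after a start, and those of the 3 genes called up are shown 5′ to 3′ on the coding strand. KLF9 is a zinc finger protein of the Sp/KLF family, whose members bind GC-rich boxes, and capitals mark the GC box GGGCGG or its complement CCGCCC. The windows are chr11:16751953-16752252 for Egfr, chr5:33721474-33721773 for the first of the Fgfr3 starts and chr13:58806319-58806618 for Ntrk2, all on the plus strand.
Egfr: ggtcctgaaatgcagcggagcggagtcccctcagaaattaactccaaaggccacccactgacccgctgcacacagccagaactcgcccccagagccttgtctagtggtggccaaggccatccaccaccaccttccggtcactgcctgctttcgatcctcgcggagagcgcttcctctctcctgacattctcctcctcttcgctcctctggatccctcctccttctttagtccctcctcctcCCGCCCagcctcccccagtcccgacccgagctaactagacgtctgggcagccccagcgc
Fgfr3: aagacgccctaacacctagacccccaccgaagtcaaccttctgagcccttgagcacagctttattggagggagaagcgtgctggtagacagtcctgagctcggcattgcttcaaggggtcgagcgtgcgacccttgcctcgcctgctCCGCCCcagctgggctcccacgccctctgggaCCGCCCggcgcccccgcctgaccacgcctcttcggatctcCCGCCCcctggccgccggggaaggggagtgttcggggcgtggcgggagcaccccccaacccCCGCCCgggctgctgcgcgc
Ntrk2: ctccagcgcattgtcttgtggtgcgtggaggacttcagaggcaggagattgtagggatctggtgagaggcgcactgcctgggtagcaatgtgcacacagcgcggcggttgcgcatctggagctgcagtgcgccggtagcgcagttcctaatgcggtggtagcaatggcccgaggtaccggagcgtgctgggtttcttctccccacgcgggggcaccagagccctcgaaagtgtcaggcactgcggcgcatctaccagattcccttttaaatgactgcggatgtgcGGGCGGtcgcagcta
The GC box occurred 1 time in Egfr, 4 times in this Fgfr3 window, 2 times in the other Fgfr3 window and 1 time in Ntrk2, and 0 times in Erbb2, Erbb4 and Fgfr2. Of all 32851 promoters of this length, 35.7% held at least 1 GC box. The CACCC box (CACCC or GGGTG) occurred in 4 of the 7 windows of members, with 4 matches in Erbb2, against 57.5% of all promoters. A match describes these letters in this window and is no evidence of binding.

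Around the receptors, 58 genes in 6 lists of ligands, co-receptors, adaptors and inhibitors were followed. Of these, 37 passed the filter, 1 was called up (1.82% of all genes were) and 1 was called down (2.50% of all genes were), with 20 positive and 17 negative log2 fold changes and a median of 0.01. The other 21 had at most 29 counts in a sample, and 6 of them had 0 counts in all samples.

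**Figure D5:**
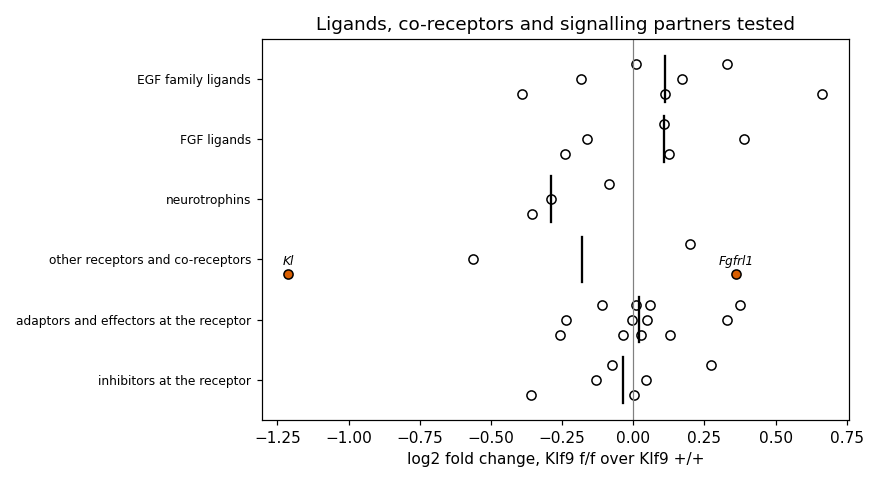
Log2 fold change of Klf9 f/f over Klf9 +/+ for each of the 37 ligand, co-receptor and signalling genes tested, by list, with filled points for those passing the study's rule and a vertical bar at the median of the list. Fgfrl1 at 0.36 and Kl at -1.21 are the filled points, and the list medians lie between -0.29 and 0.11.

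None of the ligand genes passed the rule. Of 11 EGF family ligands 7 were tested and 0 called, with Hbegf at a mean of 15.9 CPM and Tgfa at 13.2 CPM over the 6 samples, both ligands of EGFR. Tgfa was above the controls of its series in all 3 Klf9 f/f samples, with a log2 fold change of 0.33 (SE 0.17). Of the 37 genes tested in the 6 lists, 2 were above in this way and 2 below, among the latter Fgf9. Over all genes, 7.78% were above and 5.53% below. Of 18 FGF ligands 5 were tested and 0 called. Fgf1, which binds all FGF receptors, stood at 21.98, 25.5 and 36.8 CPM in the controls, against 38.8, 22.9 and 48.8 CPM in Klf9 f/f, with a log2 fold change of 0.39 (SE 0.20). Fgf9 had a mean of 3.40 CPM and a log2 fold change of -0.24 (SE 0.24). Of the neurotrophins, 3 of 4 were tested and 0 called. Bdnf, the ligand of TrkB, had a mean of 31.1 CPM and a log2 fold change of -0.09 (SE 0.15), and Ntf3, the ligand of TrkC, a mean of 7.61 CPM and -0.36 (SE 0.24).

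Both calls fell among the other receptors and co-receptors. Fgfrl1, an FGF receptor without a kinase domain, stood at 38.8, 29.6 and 55.7 CPM in the controls, against 43.9, 41.6 and 75.3 CPM in Klf9 f/f. Each Klf9 f/f sample was above the controls of its series, and the log2 fold change was 0.36 (SE 0.14, unadjusted p = 0.0318, adjusted p = 1.00 by edgeR). Kl, which encodes the FGF23 co-receptor alpha-Klotho, stood at 3.21, 7.95 and 72.3 CPM in the controls, against 5.25, 1.87 and 14.5 CPM in Klf9 f/f. Klf9 +/+ replicate 3 was far above the others, and the log2 fold change was -1.21 (SE 0.49, unadjusted p = 0.0351, adjusted p = 1.00 by edgeR). The choroid plexus markers summed to 248, 977 and 4038 CPM in the controls, against 174, 100 and 752 CPM in Klf9 f/f, and their part in the Kl difference was not tested. Sort1, which encodes the neurotrophin co-receptor sortilin, had a mean of 94.7 CPM and a log2 fold change of 0.20 (SE 0.13).

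The 12 adaptors and effectors were all tested and 0 were called, with a median log2 fold change of 0.02. Ptpn11, the phosphatase SHP2, and Grb2, the adaptor that links receptors to the Ras activator SOS, were the most abundant by CPM, at means of 141.7 and 121.2 CPM with log2 fold changes of -0.26 (SE 0.22) and 0.03 (SE 0.15). All 6 inhibitors at the receptor were tested and 0 were called, with a median of -0.04. Lrig1, which promotes the breakdown of EGF family receptors, and Errfi1, which binds and blocks the EGFR kinase, had means of 74.0 and 67.0 CPM and log2 fold changes of 0.27 (SE 0.18) and -0.36 (SE 0.24).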

How the data were processed

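Per the labels and the study's methods, ribosome-bound RNA was amplified with an ultra low input kit, and the authors aligned reads with STAR to mm9 and counted them per gene with HTSeq (tools and build per the submitters' processing notes), without strand. They deposited whole-number counts. The 5 HTSeq summary lines, 16.4 to 26.6% of reads, were left out. Of 37620 genes, 37205 were named from GENCODE M1. The 15056 genes that exceeded 1 CPM in 1 or more samples were scaled by TMM and tested with edgeR 4.0.16 (glmQLFit, glmQLFTest, R 4.3.3) over all 6 samples, with library series as a term and 3 residual degrees of freedom. The SE is the log2 fold change divided by the square root of F. Lengths were unions of exons. The script was tested on simulated data. Members and lists were chosen with earlier results of these data known. Named genes were the members, Klf9, pathway genes called, the 2 most abundant of each pathway list and the 2 nearest profiles. Log2 CPM used a prior count of 2. Alternatives were DESeq2 1.42.0, the likelihood-ratio test, no series term, upper-quartile scaling, other filters, samples left out, YTa22 alone, marker covariates and other lengths. Figures were drawn with matplotlib 3.10.9. Some genes that the rule names are not reported here.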

Additional observations from a re-analysis of the deposited data

How the results depend on the processing

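Each choice was changed alone. The count of members called up, 3, was the same under the likelihood-ratio test, DESeq2, upper-quartile scaling and both other filters, but was 0 without the series term, in YTa22 alone and with astrocyte or choroid plexus markers as a covariate, 5 with endothelial and mural markers, and 0 to 3 with a sample left out. Over all genes, calls up went from 274 to 50 without the series term, 174 in YTa22 alone, 134, 362 and 746 with astrocyte, choroid plexus, and endothelial and mural markers, and 513 with no filter. The count of pathway genes called up, 1, was 0 without the series term, in YTa22 alone and with astrocyte markers, 3 with no filter, 2 with choroid plexus markers, 5 with endothelial and mural markers and 0 to 4 with a sample left out. That of pathway genes called down, 1, was 0 without the series term, under DESeq2, in YTa22 alone and with astrocyte markers, 3 with no filter and 0 to 2 with a sample left out. Log2 fold changes turned sign only among members not called. With astrocyte markers Erbb2 was at -0.30, Erbb4 at -0.19, Fgfr1 at -0.0015 and Fgfr2 at -0.17. With choroid plexus markers Erbb2 was at -0.64, and with endothelial and mural markers Erbb3 was at 0.73 and Fgfr1 at -0.0054. Without the series term Erbb3 was at 0.021 and Erbb4 at -0.0082, and in YTa22 alone Fgfr1 was at -0.070. With a sample left out, Erbb3 ranged from -0.56 to 0.32, Erbb4 from -0.27 to 0.23, Fgfr1 from -0.070 to 0.092, Fgfr2 from -0.089 to 0.35 and the Egfr/Erbb2 difference from -0.13 (without Klf9 +/+ replicate 3) to 0.53. Ntrk3 over Egfr was at -0.30 per coding base. The cause of these changes was not tested. Exon bases shared with no other gene, a length added after the data were seen, left the order of levels as it was. Erbb3 was not tested under the filter on 3 samples. No paired analysis was possible because the labels carry no replicate numbers and those used here only name the samples. YTa32 held 1 sample per genotype, which limits every difference within it.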
